A study of Mus musculus with 8 samples.

Results

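The genes described here are the cell cycle and DNA replication genes of brown adipose tissue (BAT), chosen by their symbols from a list of 42, of which 41 were found among the 49452 genes in the table and Cdt1 was not analysed here. They were read as 11 replication genes, which act in S phase (Mcm2 to Mcm7, Pcna, Rrm1, Rrm2, Tyms and Cdc6), 28 mitotic genes, which act from G2 to cytokinesis, and the transcription factor genes E2f1 and Foxm1. The study profiled BAT of male C57BL/6 mice by RNA-Seq of rRNA-depleted total RNA, in 2 comparisons of 2 libraries per group, to find genes that follow BAT function. In the cold comparison, mice aged 10 to 12 weeks were housed at 22 °C or kept at 4 °C for 24 h, with food withdrawn at the end of the cold exposure. Whether the 22 °C mice were fasted is not given in the sources used here, so cold and fasting cannot be told apart. In the diet comparison, mice aged 32 weeks had been fed a control diet (CD), which the labels call normal chow, or a high-fat diet (HFD) for 28 weeks. The 22 °C and CD mice differed in age and in diet history at once, so levels in these control groups are given side by side without a test. The study's methods count the libraries as replicates of a condition and do not say whether each came from a separate animal or from a pool, so p-values measure the spread between these libraries, which may be technical.

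A cell that divides first licenses its replication origins by loading the Mcm2-7 helicase with the help of Cdc6, then copies its DNA with the sliding clamp PCNA and with deoxynucleotides from ribonucleotide reductase (Rrm1, Rrm2) and thymidylate synthase (Tyms). Mitosis is then driven by Cdk1 with cyclins A and B, by Aurora and Polo kinases, and by the spindle, kinetochore and cytokinesis proteins, until APC/C destroys the cyclins. Replication genes are classical targets of E2F factors, whereas mitotic genes are held silent in resting cells and switched on later by complexes that bind the cell cycle genes homology region (CHR) of their promoters, with help from CCAAT boxes and FOXM1. In BAT, mature brown adipocytes seldom divide, and precursor, endothelial and immune cells are the usual dividing cells.

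Levels are FPKM (fragments per kilobase of transcript, scaled to the number of mapped fragments) as the authors deposited them, and values are listed in the order replicate 4 then 7 for 22 °C, 2 then 11 for 4 °C, 6 then 8 for CD, and 2 then 6 for HFD. The 10 brown adipocyte markers, Ucp1, Cidea and Adipoq among them, were detected in all 8 libraries, with a summed level of 7389 to 18046 FPKM. In each group, 1 library (replicate 4 of 22 °C, replicate 11 of 4 °C, replicate 8 of CD, replicate 2 of HFD) held 447 to 15726 FPKM of Gm10800, a satellite-like transcript, against 0.0998 to 4.13 FPKM in the other library, and this library type was tried as a covariate. X-linked genes were listed at 0 in the 22 °C libraries and in CD replicate 6; all 41 genes described here are autosomal. The labels of the 4 temperature libraries and CD replicate 6 open with the same prefix, SN, while those of CD replicate 8 and both HFD libraries open with another one, whose meaning is not stated, so the diet result is also given without CD replicate 6. The low values step in whole fragments in 97.3% to 98.4% of the genes read for it, and 1 fragment on a transcript of 2000 bases was worth 0.00438 to 0.00602 FPKM.

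Most of these genes were scarce. None of the 41 was listed at 0 in any library, but 24 of the 28 mitotic genes stayed under 1 FPKM in all 8 libraries, against 2 of the 11 replication genes. Mitotic levels ran from 0.00681 FPKM, worth about 2 fragments of Melk, to 2.11 FPKM of Top2a, and replication levels from 0.0572 FPKM of Rrm2 to 24.0 FPKM of Pcna. Over the genes and libraries the median was 97.1 fragments, and 13 of 328 values rested on fewer than 10 fragments, so single mitotic genes such as Plk1, Melk and Bub1 carry large counting error. Counting error alone is covered by these fragment numbers.

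The promoters of both groups of genes differ in sequence, and 6 of them are printed because their genes carry the results below: Cdk1, Top2a and Mki67 of the mitotic genes, and Mcm5, Mcm6 and Tyms of the replication genes. Windows of 300 bases, from 250 bases upstream of the start site, came from RefSeq on GRCm38.p6 and were found for 24 mitotic genes (26 windows), 10 replication genes (11 windows) and E2f1. On either strand, a CHR word (TTTGAA or TTCGAA) was present in 76.9% of the mitotic windows, in 18.2% of the replication windows and in 19.2% of all 32851 RefSeq windows. The CCAAT box was present in 76.9% of mitotic and 81.8% of replication windows, against 37.4% of all. An E2F word (TTTCCCGC, TTTCGCGC, TTTGCCGC or TTTGGCGC) was present in 45.5% of replication windows, in 3.85% of mitotic windows (Cdk1 alone) and in 2.26% of all. Both a CHR word and a CCAAT box were held by 69.2% of mitotic windows and by 7.52% of all. Capitals in the sequences mark these matches. The word TTCGAA is its own reverse complement, and E2F words on both strands overlap at 1 place each in Mcm5 and Mcm6. The windows lie at chr10:69352863-69353162 (Cdk1, minus strand), chr11:99024140-99024439 (Top2a, minus), chr7:135716330-135716629 (Mki67, minus), chr8:75109259-75109558 (Mcm5, plus), chr1:128359656-128359955 (Mcm6, minus) and chr5:30073576-30073875 (Tyms, minus), each written 5′ to 3′ on the strand of its gene.
Cdk1: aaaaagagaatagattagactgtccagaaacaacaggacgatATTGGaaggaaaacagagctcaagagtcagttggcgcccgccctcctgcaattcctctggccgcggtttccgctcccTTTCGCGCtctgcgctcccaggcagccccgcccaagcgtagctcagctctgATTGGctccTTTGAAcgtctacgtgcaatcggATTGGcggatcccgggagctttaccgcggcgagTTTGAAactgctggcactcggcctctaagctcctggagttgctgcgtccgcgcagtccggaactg
Top2a: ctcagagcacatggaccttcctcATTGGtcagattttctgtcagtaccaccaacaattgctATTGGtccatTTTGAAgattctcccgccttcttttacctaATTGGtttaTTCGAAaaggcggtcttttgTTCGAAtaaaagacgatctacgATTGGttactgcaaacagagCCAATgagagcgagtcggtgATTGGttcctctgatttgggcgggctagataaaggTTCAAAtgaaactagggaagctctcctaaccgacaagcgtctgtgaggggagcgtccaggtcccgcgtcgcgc
Mki67: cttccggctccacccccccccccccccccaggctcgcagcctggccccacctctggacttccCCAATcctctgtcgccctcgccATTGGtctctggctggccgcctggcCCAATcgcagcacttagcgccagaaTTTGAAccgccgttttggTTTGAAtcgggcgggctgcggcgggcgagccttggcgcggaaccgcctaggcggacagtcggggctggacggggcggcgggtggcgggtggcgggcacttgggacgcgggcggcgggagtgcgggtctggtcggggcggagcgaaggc
Mcm5: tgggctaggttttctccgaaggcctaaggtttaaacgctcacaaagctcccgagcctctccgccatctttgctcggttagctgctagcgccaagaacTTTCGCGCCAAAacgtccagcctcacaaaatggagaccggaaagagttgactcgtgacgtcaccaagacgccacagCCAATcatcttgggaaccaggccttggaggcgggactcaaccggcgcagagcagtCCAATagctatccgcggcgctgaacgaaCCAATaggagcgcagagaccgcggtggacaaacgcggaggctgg
Mcm6: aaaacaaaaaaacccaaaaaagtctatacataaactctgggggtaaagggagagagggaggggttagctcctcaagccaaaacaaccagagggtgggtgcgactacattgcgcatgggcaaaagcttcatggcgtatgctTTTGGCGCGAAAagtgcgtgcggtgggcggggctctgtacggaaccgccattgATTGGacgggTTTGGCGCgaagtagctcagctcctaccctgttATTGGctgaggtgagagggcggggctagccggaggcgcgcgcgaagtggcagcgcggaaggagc
Tyms: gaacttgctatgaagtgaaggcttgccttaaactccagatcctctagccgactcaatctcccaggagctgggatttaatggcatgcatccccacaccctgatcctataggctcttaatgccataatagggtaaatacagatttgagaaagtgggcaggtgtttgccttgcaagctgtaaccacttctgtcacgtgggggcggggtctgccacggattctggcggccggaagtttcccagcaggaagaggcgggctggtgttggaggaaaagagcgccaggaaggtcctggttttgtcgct
The Cdk1 window holds CHR words at positions -71 to -66 and -15 to -10, with the start site as position 0, and CCAAT boxes at -80 to -76 and -48 to -44 beside them. In the Mki67 window, CHR words stand at -116 to -111 and -98 to -93 with a CCAAT box at -141 to -137. The Mcm5 window carries its E2F words between -153 and -142 and 3 CCAAT boxes nearer to the start, and the Tyms window holds none of the 3 motifs. A match describes the sequence and says nothing of binding.

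**Figure D1:**
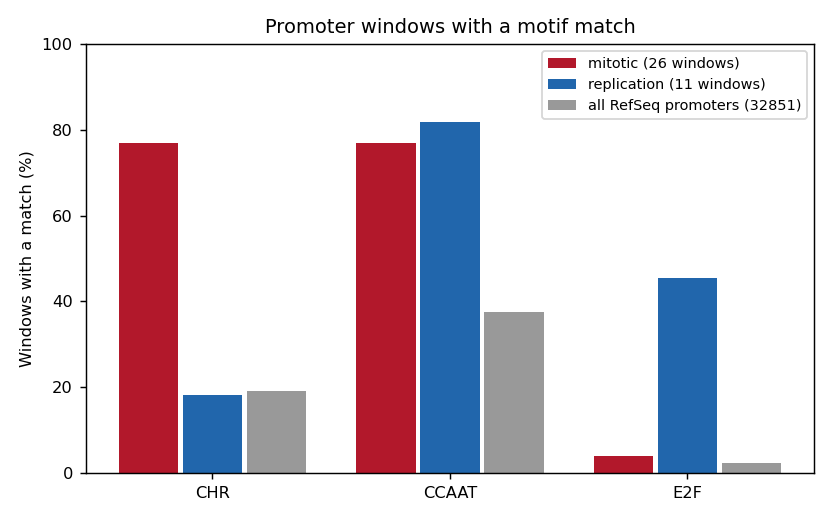
Share of promoter windows (%, vertical axis) with a match to the CHR, CCAAT or E2F words, for 26 windows of mitotic genes, 11 windows of replication genes and 32851 windows of all RefSeq genes. CHR matches were present in 76.9% of mitotic and 18.2% of replication windows, and E2F matches in 3.85% and 45.5%.

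After HFD feeding, replication and mitotic genes were both higher in FPKM than after CD feeding. Median centring of the log2 values turned 12 of the 39 tested lower and left 27 above 0, where 5697 of 17543 genes in all were. For 38 of the 41 genes both HFD libraries lay above both CD libraries and for none below, where 39.9% of all genes tested lay above and 5.8% below; of all autosomal genes above 0 in any of the 4 libraries, 25.3% lay above and 4.98% below. The exceptions, whose groups overlapped, were Tyms, Plk1 and Cenpe. The ratio of mean FPKM, HFD over CD, was above 1 for all 41 genes, with a median of 2.82 against 1.30 over all genes tested. By group, this median was 2.12 for the 11 replication genes (range 1.25 for Tyms to 4.46 for Rrm2) and 2.96 for the 28 mitotic genes (1.55 for Bub1b to 4.55 for Melk). In bulk tissue, more cells of a dividing type and more of these RNAs per cell cannot be told apart.

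Under HFD no gene of the 41 was called in the fit as planned, and most could not have been. With limma on log2(FPKM + 1), called at an adjusted p under 0.05 and a log2 fold change of at least 1, 0 of the 39 genes that passed the filter on low values were called, and 12 of 17543 genes in all (0.0684%). A gene under 1 FPKM in all 4 libraries cannot reach a log2 fold change of 1 on this scale, which held for 26 of the 39 (22 of 26 mitotic genes, 2 of 11 replication genes, E2f1 and Foxm1), so for these the count was fixed by the scale. Without the fold requirement, 0 of the 39 had an adjusted p under 0.05, against 0.0855% of all genes tested. On log2(FPKM + 0.1), where low genes can reach the fold, limma also called 0 of the 39 (15 of 17543 genes in all, 0.0855%). The filter, 0.1 FPKM in at least 2 of the 4 libraries, removed Plk1 and Cenpf. At an unadjusted p under 0.05, 30 of the 39 were higher and 0 lower, while 12.1% and 2.34% of all genes tested were; since genes can pass the filter through the HFD libraries alone, these counts describe the genes and support nothing further. With library type as a covariate, limma called Mcm5 (adjusted p = 0.00796), Mcm6 (adjusted p = 0.0125) and Cdk1 (adjusted p = 0.00935), with a background of 4.25%. At any fold, 26 of the 39 then had an adjusted p under 0.05, against 16.9% of all genes tested. Fitting 2 group means and a covariate to 4 libraries leaves little spread to measure per gene. The p-values of such fits therefore lean on the variance that limma pools across genes. A pseudocount of 0.1 with this covariate called 19 of the 39, where 11.5% of all genes were called, and a fit of all 8 libraries called Cdk1 alone (background 0.428%).

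The CD libraries differed from each other, and replicate 6 exceeded replicate 8 for 31 of the 41 genes. Their median-of-ratios factors over 8824 genes were 1.05 for replicate 6 and 0.735 for replicate 8. A library-wide offset thus went the same way, and the count is not read as particular to these genes. Leaving out CD replicate 6, which also leaves libraries of 1 label prefix and a lone CD library assumed to vary like the HFD group, had limma call 6 of the 39 (Mcm2, Mcm3, Mcm5, Mcm6, Cdk1 and Top2a; background 4.28%). Without HFD replicate 2, Mcm5 and Cdk1 were called (background 2.09%). Without CD replicate 8 or HFD replicate 6, limma called 0 of the 39 (backgrounds 1.39% and 0.695%).

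Of all genes tested, 79.3% had a log2 fold change above 0 under HFD. Median centring, which lowered every log2 fold change by 0.32, left 27 of the 39 tested genes above 0 and turned 12 negative (Cdc6, Foxm1 and 10 mitotic genes). Of all 17543 genes tested, 5697 were then above 0. After dividing each library by a median-of-ratios factor, the ratio of means was above 1 for all 41 genes, with a median of 2.27 against 1.02 over all genes tested. Both HFD libraries then lay above both CD libraries for 32 of the 41 (78.0%), where 23.7% of all genes tested did, and for none below, where 17.7% did. This scaling with a pseudocount of 0.1 and the library type covariate left Mcm5 (log2 fold change 1.67, adjusted p = 0.0397) and Cdk1 (1.72, adjusted p = 0.0443) called by limma, at a background of 5.51%.

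**Figure D2:**
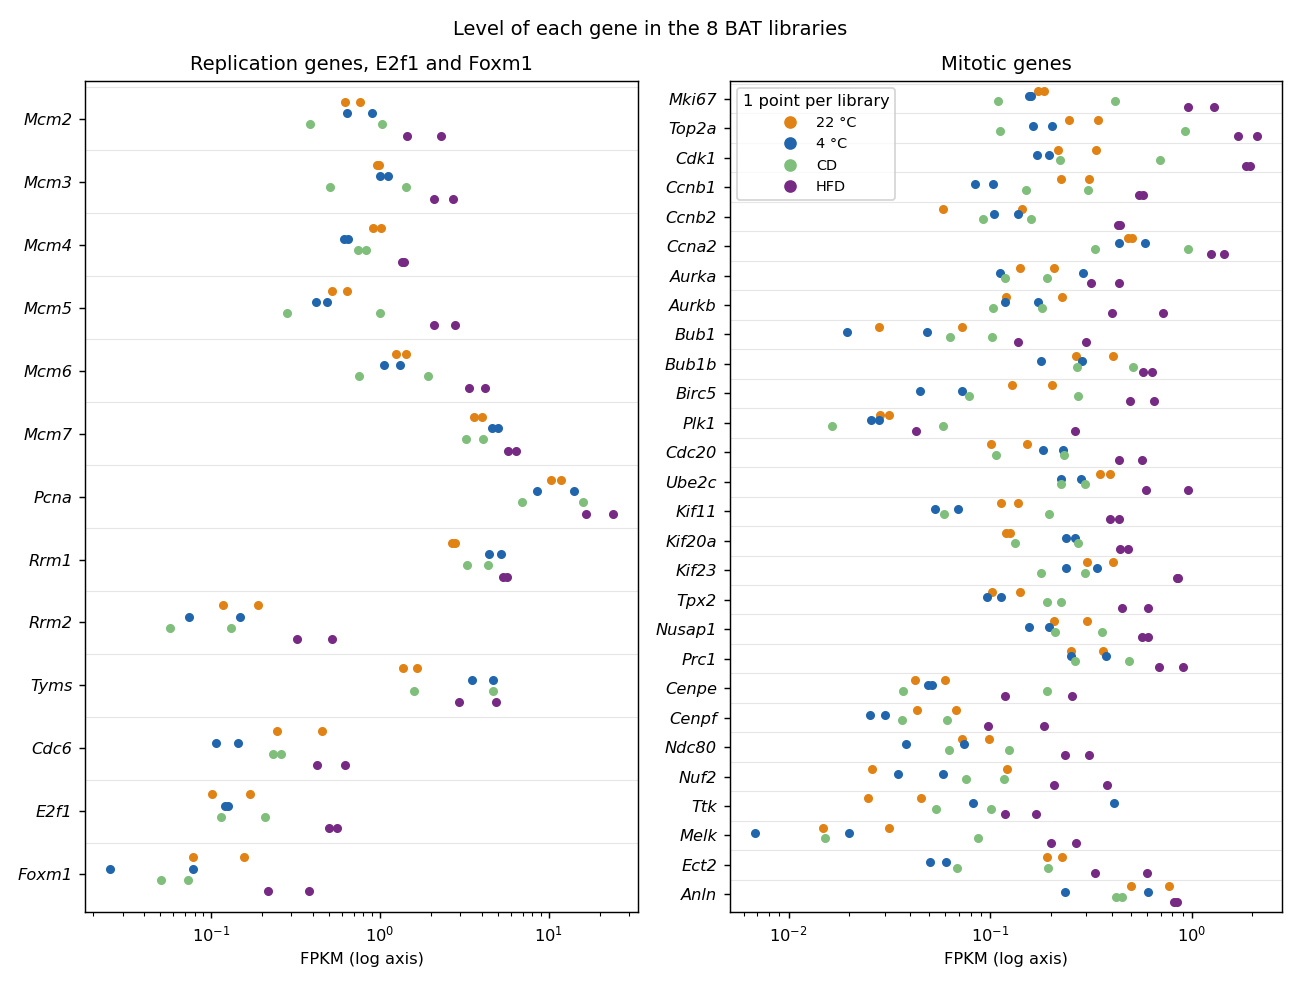
FPKM (log axis) of each of the 41 genes in the 8 libraries, 1 point per library, coloured by group, with replication genes, E2f1 and Foxm1 at the left and mitotic genes at the right. HFD replicate 2 or 6 holds the highest point for 40 of the 41 genes, and Ttk in 4 °C replicate 2 (0.411 FPKM) is the exception.

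Among the genes of origin licensing, Mcm5, a subunit of the Mcm2-7 helicase, had the largest fold change of the replication genes under HFD on log2(FPKM + 1). It measured 1.0 and 0.282 FPKM with CD and 2.09 and 2.78 with HFD, a ratio of means of 3.80 and a log2 fold change of 1.09 ± 0.28 (SE, n = 2 per group; limma, adjusted p = 0.170). Both HFD libraries lay above both CD libraries, which differed among themselves. The helicase subunit Mcm6 measured 1.92 and 0.755 FPKM with CD and 3.36 and 4.17 with HFD (log2 fold change 1.07 ± 0.33, limma adjusted p = 0.219). Mcm3 measured 1.43 and 0.506 with CD against 2.09 and 2.72 FPKM with HFD, and Mcm2 1.03 and 0.388 with CD against 1.45 and 2.31 FPKM with HFD. For these 4 helicase genes CD replicate 6 exceeded CD replicate 8, and both stayed below HFD. Mcm4 (0.747 and 0.826 with CD against 1.39 and 1.35 FPKM with HFD) and Mcm7 (4.06 and 3.25 with CD against 5.75 and 6.36 FPKM with HFD) had smaller ratios, of 1.74 and 1.65. Of the Mcm7 exons, 7.25% of bases are shared with Ap4m1 on the opposite strand, which was at 4.07 to 7.28 FPKM, and whether the counting used strand is not given. The licensing factor Cdc6 measured 0.233 and 0.262 FPKM with CD and 0.625 and 0.425 with HFD, a ratio of 2.12 with CD libraries close together.

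Genes of the clamp and the nucleotide supply had ratios from 1.25 to 4.46. Pcna, the most abundant of the 41 genes, measured 15.9 and 6.97 FPKM with CD and 16.6 and 24.0 with HFD (log2 fold change 0.85 ± 0.47, limma adjusted p = 0.460). CD replicate 6 lay just below HFD replicate 2 here, so the groups were barely apart. Rrm2, the regulated small subunit of ribonucleotide reductase, measured 0.132 and 0.0572 FPKM with CD and 0.518 and 0.325 with HFD, the largest ratio of the replication genes (4.46). Its large-subunit partner Rrm1 measured 4.35 and 3.27 with CD against 5.37 and 5.65 FPKM with HFD, a ratio of 1.45. Tyms, which makes thymidylate, measured 4.67 and 1.59 FPKM with CD and 2.93 and 4.89 with HFD, and is the replication gene whose diet groups overlapped.

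Of the mitotic genes, Cdk1, the kinase that drives entry into mitosis, had the largest fold change under HFD on log2(FPKM + 1). It measured 0.694 and 0.222 FPKM with CD and 1.87 and 1.95 with HFD, a ratio of means of 4.17 and a log2 fold change of 1.02 ± 0.22 (SE, n = 2 per group; limma, adjusted p = 0.151). The HFD libraries were close together and above every other library, while the CD libraries differed. Top2a, which untangles sister chromosomes, measured 0.926 and 0.112 FPKM with CD and 2.11 and 1.69 with HFD (log2 fold change 0.98 ± 0.28, limma adjusted p = 0.198). Mki67, the proliferation antigen that coats mitotic chromosomes, measured 0.414 and 0.110 with CD against 1.29 and 0.963 FPKM with HFD (0.76 ± 0.17, limma adjusted p = 0.158). These are the 3 mitotic genes whose promoters are printed above, and in each the lower CD library was replicate 8. Kif23, a motor of the central spindle, measured 0.297 and 0.179 FPKM with CD and 0.848 and 0.855 with HFD, a log2 fold change of 0.58 ± 0.12 (limma adjusted p = 0.151).

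Of the 10 cyclins, mitotic kinases and APC/C genes, 9 were higher in both HFD libraries (39.9% of all genes tested), and Plk1 overlapped. Cyclin A2 (Ccna2) measured 0.958 and 0.332 FPKM with CD and 1.24 and 1.44 with HFD, cyclin B1 (Ccnb1) 0.307 and 0.151 with CD against 0.572 and 0.545 FPKM with HFD, and cyclin B2 (Ccnb2) 0.159 and 0.0926 with CD against 0.432 and 0.439 FPKM with HFD. All 3 cyclins were higher in both HFD libraries, with ratios of 2.08 to 3.46. Ccna2 shares 12.5% of its exon bases with Exosc9 on the opposite strand, at 3.84 to 9.01 FPKM, so reads of both can be mixed if the counting ignored strand. The Ccnb2 values are uncertain because a processed copy, Ccnb2-ps, was itself listed at 0.250 to 0.718 FPKM and may share reads with it. Aurkb, the kinase of the chromosomal passenger complex, measured 0.103 and 0.180 FPKM with CD and 0.716 and 0.401 with HFD, and Birc5, survivin of the same complex, 0.273 and 0.0783 with CD against 0.647 and 0.496 FPKM with HFD. For Plk1, the Polo kinase, the single high value was HFD replicate 2 (0.263 FPKM, 54.2 fragments), and HFD replicate 6 (0.0430 FPKM) lay below CD replicate 8 (0.0581 FPKM). Ube2c, the ubiquitin-conjugating enzyme of APC/C, measured 0.225 and 0.295 FPKM with CD and 0.960 and 0.590 with HFD, and shares 22.8% of its exon bases with the muscle gene Tnnc2 on the opposite strand, which was lower with HFD, at 26.5 and 154 FPKM with CD and 19.7 and 0.860 FPKM with HFD.

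By role, both HFD libraries exceeded both CD libraries for 7 of 8 kinetochore and checkpoint genes and 8 of 8 spindle and cytokinesis genes, where 39.9% of all genes tested did. Median ratios of means were 2.76 and 2.40 in these roles and 3.22 for cyclins, kinases and APC/C genes. The kinetochore motor Cenpe stayed out because CD replicate 8 (0.191 FPKM) exceeded HFD replicate 6 (0.119 FPKM). Among the regulators, E2f1 measured 0.210 and 0.115 FPKM with CD and 0.503 and 0.560 with HFD, a ratio of 3.27, and Foxm1 0.0506 and 0.0731 with CD against 0.383 and 0.218 FPKM with HFD, the largest ratio of all 41 (4.86). Neither regulator overlapped between the diet groups. Both stayed under 1 FPKM in every library, so neither could be called on log2(FPKM + 1), where the log2 fold change was 0.40 for E2f1 and 0.29 for Foxm1 (limma adjusted p = 0.169 and 0.215). On log2(FPKM + 0.1) it was 1.29 and 1.28 (limma adjusted p = 0.222 and 0.228), and both were called there with the library type covariate (adjusted p = 0.0228 and 0.0245; 11.5% of all genes tested were called). Foxm1 was under 0.1 FPKM in both CD libraries and passed the filter through the HFD libraries alone, so its call is not independent of the filter.

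Macrophage markers were also higher under HFD. The summed level of the 10 markers was 145 and 52.8 FPKM with CD and 292 and 341 FPKM with HFD, and 9 of 10 were higher in both HFD libraries (39.9% of all genes tested), with a median ratio of means of 4.08; none was at 0 in any library. Adipocyte progenitor and stromal markers were higher in both HFD libraries for 7 of 10, and the summed level was 120 and 106 FPKM with CD and 182 and 222 FPKM with HFD. Endothelial markers were higher in both for 6 of 10. Lymphocyte markers were higher in both HFD libraries for 5 of 10 and lower in both for 3, with sums of 1.10 to 1.79 FPKM in the diet libraries. Skeletal muscle markers were lower in both HFD libraries for 10 of 11 (5.8% of all genes tested). Of 9 erythroid markers, 5 were higher in both HFD libraries and 0 lower, with sums of 802 and 436 FPKM with CD and 562 and 1273 FPKM with HFD. The part of these other cells in the result was not tested.

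**Figure D3:**
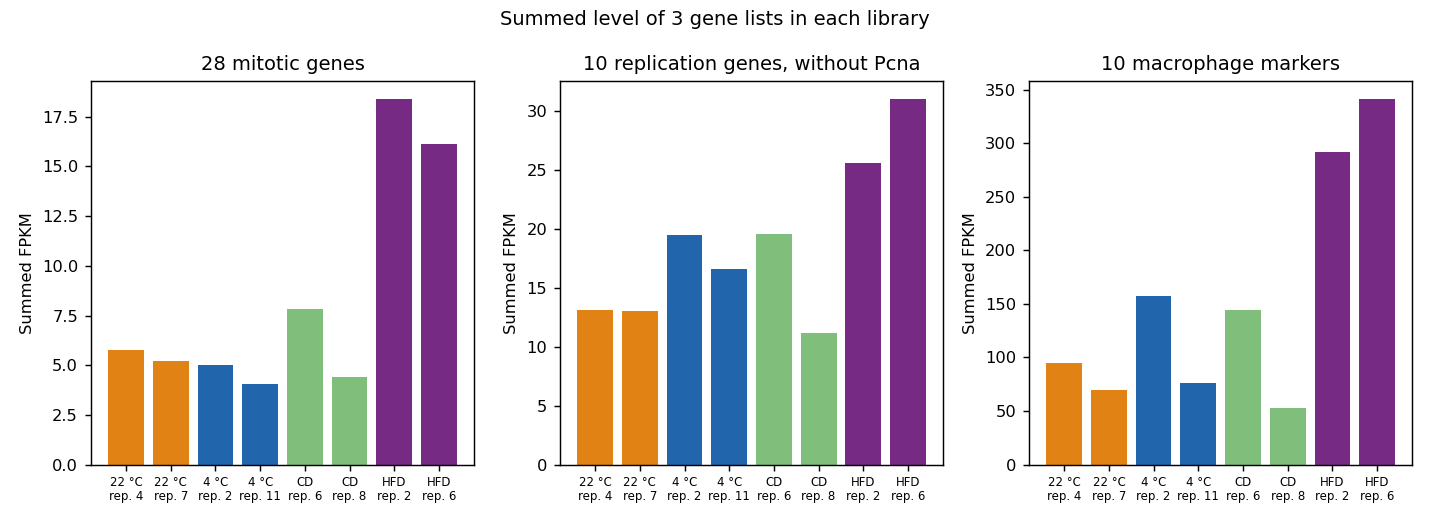
Summed FPKM (vertical axes, from 0) of the 28 mitotic genes, of 10 replication genes without Pcna and of 10 macrophage markers in each library, 1 bar per library, coloured by group. The mitotic sum was 18.4 and 16.1 FPKM in the HFD libraries and 4.05 to 7.84 FPKM in the other 6, and the macrophage sum was 292 and 341 FPKM under HFD and 52.8 to 158 FPKM elsewhere.

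In the cold, these genes went in both directions. For 7 of the 41 genes both cold libraries exceeded both 22 °C libraries, and for 14 both lay below, and 20 overlapped; of all genes tested, 37.9% lay above and 20.6% below, and of all autosomal genes above 0 in any of the 4 libraries, 22.4% and 17.5%. Replication genes were 4 higher, 3 lower and 4 overlapping, and mitotic genes 3 higher, 11 lower and 14 overlapping. The median ratio of means, 4 °C over 22 °C, was 1.03 for the replication genes (range 0.361 to 2.70) and 0.690 for the mitotic genes (0.264 to 7.03), against 1.13 over all genes tested. After median-of-ratios scaling, which lowers 4 °C replicate 2 most of the 4 libraries, 4 of the 41 lay above and 22 below (53.7%; all genes tested 25.7% above and 34.9% below). The mitotic sum was 5.77 and 5.23 FPKM at 22 °C and 4.99 and 4.05 FPKM at 4 °C and was thus lower in both cold libraries.

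With limma, 0 of the 32 genes that passed the filter in the cold comparison were called, and 252 of 17477 in all (1.44%). Of the 32, 25 stayed under 1 FPKM in all 4 libraries, all 20 mitotic genes among them, and could not be called on this scale. Without the fold requirement, 0 of the 32 had an adjusted p under 0.05 (1.81% of all genes tested), and on log2(FPKM + 0.1) limma called 0 of the 32 (2.71% of all). At an unadjusted p under 0.05, 3 were higher (Tyms, Rrm1 and Kif20a) and 3 lower (Cdc6, Ccnb1 and Ect2), while 17.2% and 7.27% of all genes tested were. The filter removed 9 of the 41, Foxm1 and 8 mitotic genes, so these counts do not stand for all of them. Genes can also pass the filter through 1 group alone, as Ect2 did through the 22 °C libraries, so these counts are a description. A covariate for library type, a filter of 1 FPKM, or keeping X, Y and mitochondrial genes made 1 of the genes, Tyms, a call, as given next. A pseudocount of 0.1 with the covariate did the same.

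The nucleotide supply genes Tyms and Rrm1 were the replication genes with the highest values in the cold relative to 22 °C. Tyms measured 1.37 and 1.65 FPKM at 22 °C and 4.66 and 3.51 FPKM at 4 °C, a ratio of means of 2.70 and a log2 fold change of 1.01 ± 0.20 (SE, n = 2 per group; limma, adjusted p = 0.0636). The groups did not overlap, and the difference was larger than the spread within either. Its limma adjusted p was 0.0474 with the library type covariate (background 4.92%) and 0.0484 with the 1 FPKM filter (background 4.83%). It was 0.0480 with a pseudocount of 0.1 and the covariate (background 5.13%), and ranged from 0.0319 to 0.491 over the alternatives. With X, Y and mitochondrial genes kept it was 0.0461 (background 5.12%). That setting adds X-linked genes, of which 0 were above 0 in either 22 °C library and 781 and 840 at 4 °C, so it supports nothing for Tyms. Rrm1 measured 2.68 and 2.78 FPKM at 22 °C and 5.21 and 4.42 at 4 °C, a ratio of 1.77 and a log2 fold change of 0.64 ± 0.18 (limma adjusted p = 0.115). Rrm2, its partner subunit, measured 0.190 and 0.118 at 22 °C against 0.0741 and 0.148 FPKM at 4 °C, and the groups overlapped. Pcna measured 11.8 and 10.3 at 22 °C against 14.1 and 8.50 FPKM at 4 °C, also with overlap.

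Within the Mcm2-7 helicase, which works as a ring of all its subunits, the cold values differed by subunit. Mcm7 measured 3.60 and 4.01 FPKM at 22 °C and 4.98 and 4.64 at 4 °C, and Mcm4 1.02 and 0.905 at 22 °C against 0.611 and 0.649 FPKM at 4 °C. Mcm7 was thus higher and Mcm4 lower in both cold libraries, with ratios of 1.26 and 0.653, and neither passed limma's test (adjusted p = 0.389 and 0.205). For Mcm7 the log2 fold change of 0.27 turned to -0.09 when the libraries were rescaled without mitochondrial and rRNA genes and Ucp1. Mcm5 measured 0.635 and 0.521 at 22 °C against 0.487 and 0.416 FPKM at 4 °C, Mcm2 0.761 and 0.626 at 22 °C against 0.905 and 0.642 FPKM at 4 °C, Mcm3 0.986 and 0.958 at 22 °C against 1.11 and 1.01 FPKM at 4 °C and Mcm6 1.43 and 1.25 at 22 °C against 1.31 and 1.06 FPKM at 4 °C. Mcm2 and Mcm6 overlapped between the temperature groups. Cdc6 measured 0.453 and 0.246 FPKM at 22 °C and 0.145 and 0.108 at 4 °C, the lowest ratio of the replication genes (0.361; log2 fold change -0.26 ± 0.09, limma adjusted p = 0.165).

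Among mitotic genes the lowest cold ratio was that of Ect2, the exchange factor that triggers the cleavage furrow. Ect2 measured 0.227 and 0.191 FPKM at 22 °C and 0.0502 and 0.0602 at 4 °C, a ratio of 0.264 (log2 fold change -0.20 ± 0.05, limma adjusted p = 0.0958). Cyclin B1 (Ccnb1) measured 0.225 and 0.310 at 22 °C against 0.0837 and 0.103 FPKM at 4 °C (ratio 0.349, limma adjusted p = 0.115), and survivin (Birc5) 0.202 and 0.128 at 22 °C against 0.0448 and 0.0723 FPKM at 4 °C (ratio 0.355). All 3 were lower in both cold libraries, on 12.8 to 25.1 fragments each at 4 °C. Ect2 and Birc5 were under 0.1 FPKM in both 4 °C libraries. They passed the filter through the 22 °C libraries alone, so their tests are not independent of the filter. Top2a measured 0.247 and 0.341 FPKM at 22 °C and 0.204 and 0.163 at 4 °C, Cdk1 0.335 and 0.218 at 22 °C against 0.170 and 0.197 FPKM at 4 °C, and Mki67 0.184 and 0.172 at 22 °C against 0.159 and 0.156 FPKM at 4 °C. These 3 were lower in both cold libraries too, though for Mki67 the nearest libraries of both groups were 0.172 and 0.159 FPKM.

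Some mitotic genes went the other way or overlapped. Kif20a, a motor of the central spindle, measured 0.120 and 0.126 FPKM at 22 °C and 0.239 and 0.263 at 4 °C, a ratio of 2.03 (limma adjusted p = 0.160). It shares 29.3% of its exon bases with Cdc23 on the opposite strand, at 4.70 to 8.04 FPKM, so reads of both genes can be mixed if the counting ignored strand. Cdc20, the activator of APC/C, measured 0.153 and 0.101 FPKM at 22 °C and 0.184 and 0.230 at 4 °C, a ratio of 1.63, and was also higher in both cold libraries, though its log2 fold change turned negative with median centring. The checkpoint kinase Ttk had the largest ratio (7.03), through 1 library: it measured 0.0452 and 0.0249 FPKM at 22 °C and 0.411 and 0.0818 at 4 °C. Bub1b, a checkpoint protein, measured 0.266 and 0.408 at 22 °C against 0.286 and 0.179 FPKM at 4 °C, and Anln, a scaffold of the contractile ring, 0.769 and 0.500 at 22 °C against 0.607 and 0.236 FPKM at 4 °C, both with overlap. Ube2c measured 0.395 and 0.352 at 22 °C against 0.224 and 0.282 FPKM at 4 °C while the Tnnc2 gene that overlaps it was at 57.1 and 10.5 FPKM at 22 °C and at 178 and 190 FPKM at 4 °C. E2f1 (0.172 and 0.102 at 22 °C against 0.120 and 0.126 FPKM at 4 °C) and Foxm1 (0.157 and 0.0782 at 22 °C against 0.0787 and 0.0254 FPKM at 4 °C) overlapped between the temperature groups, as did Aurkb (0.228 and 0.119 at 22 °C against 0.172 and 0.119 FPKM at 4 °C), Ccna2 (0.480 and 0.508 at 22 °C against 0.588 and 0.436 FPKM at 4 °C) and Kif23 (0.303 and 0.409 at 22 °C against 0.238 and 0.341 FPKM at 4 °C).

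In the cold, 11 of 11 skeletal muscle markers were higher in both 4 °C libraries, where 37.9% of all genes tested lay above and 20.6% below, with a summed level of 512 and 106 FPKM at 22 °C and 4402 and 1810 FPKM at 4 °C. Endothelial markers were higher in both for 6 of 10 and lower for 2, and lymphocyte markers were lower in both for 7 of 10, at sums of 0.963 to 1.99 FPKM. Macrophage markers overlapped for 9 of 10, with sums of 94.5 and 69.2 FPKM at 22 °C and 158 and 76.4 FPKM at 4 °C. Of the 9 erythroid markers, 1 was higher and 1 lower in both cold libraries, with sums of 163 and 157 FPKM at 22 °C and 349 and 64.4 FPKM at 4 °C. The part of these cells in the cold values was not tested.

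**Figure D4:**
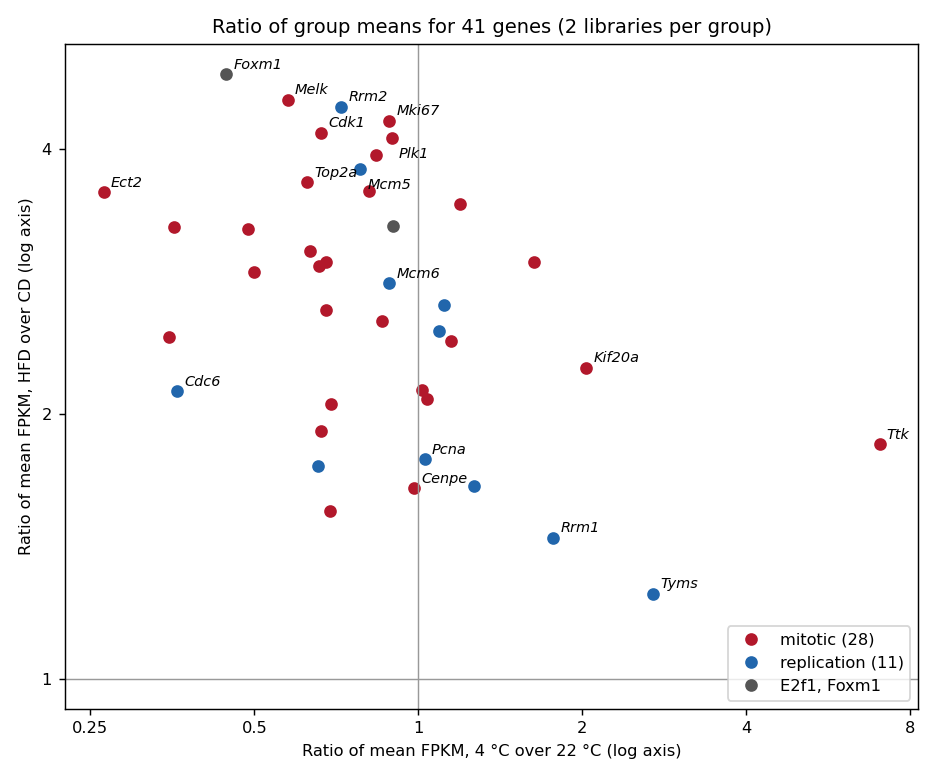
Ratio of mean FPKM, 4 °C over 22 °C (horizontal, log axis) against HFD over CD (vertical, log axis), 1 point per gene, for 28 mitotic genes, 11 replication genes and the regulators E2f1 and Foxm1; lines mark a ratio of 1. All 41 points lie above 1 for diet (1.25 to 4.86), and 28 lie below 1 for cold, with Tyms (2.70) and Ttk (7.03) farthest to the right.

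The order of replication and mitotic genes under HFD depended on the scale. As ratios of means, mitotic genes had the larger median under HFD (2.96 against 2.12), whereas on log2(FPKM + 1) the median of the genes that passed the filter was 0.60 for replication and 0.35 for mitotic genes, against 0.18 over all genes tested. With a pseudocount of 0.1 these medians were 0.92 and 1.07, so the difference, replication minus mitotic, turned from 0.25 to -0.15. In the cold, the same medians were -0.00027 for replication and -0.08 for mitotic genes, against 0.07 over all genes tested, and with a pseudocount of 0.1 they were -0.0035 and -0.29. Tyms and Rrm1 had the smallest ratios of all 41 genes under HFD (1.25 and 1.45) and ratios of 2.70 and 1.77 in the cold. This contrast was not tested as a difference between the comparisons. On log2(FPKM + 1) they did not stand apart under HFD, at 0.33 and 0.45 against 0.29 for Cdc6, 0.37 for Rrm2 and 0.41 for Mcm4. The Tyms value was 0.89 without CD replicate 6 and -0.24 without CD replicate 8.

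Replication and mitotic genes outside the 41, fixed as lists with earlier results of these data known, were also described. Under HFD, 21 of 35 other replication genes and 42 of 53 other mitotic genes were higher in both libraries and none lower (39.9% and 5.8% of all genes tested), with median ratios of 1.62 and 2.33. At an unadjusted p under 0.05, 9 of the 35 tested replication genes and 22 of the 44 tested mitotic genes were higher and 0 lower (12.1% and 2.34% of all genes tested), and as genes could pass the filter through the HFD libraries alone, these counts are a description. In the fit as planned, limma called 0 in either list, of which 9 and 32 genes stayed under 1 FPKM and could not be called. With the library type covariate, 9 of 35 and 13 of 44 had an adjusted p under 0.05 at any fold, against 16.9% of all genes tested. Of the genes named below, Pola2, Fen1, Tacc3, Lmnb1 and Pimreg were called with a pseudocount of 0.1 and this covariate, where 11.5% of all genes were. The replication genes with the largest fold change on log2(FPKM + 1) were Pola2 (1.21 and 0.787 FPKM under CD, 1.73 and 2.62 under HFD), Fen1 (1.10 and 0.411 with CD, 1.54 and 1.89 with HFD) and Rpa1 (8.48 and 5.32 with CD, 9.68 and 12.7 with HFD), which serve lagging-strand synthesis and single-strand binding. Of the mitotic list, Tacc3 measured 0.760 and 0.443 FPKM with CD and 1.53 and 1.87 with HFD, and Lmnb1, a lamin of the nuclear envelope, 0.474 and 0.216 with CD against 0.947 and 1.21 FPKM with HFD. In the cold, 9 of 35 other replication genes were higher and 10 lower, and 9 of 53 other mitotic genes were higher and 21 lower (37.9% and 20.6% of all genes tested). Dut, which removes dUTP from the nucleotide pool, measured 4.62 and 4.94 FPKM at 22 °C and 2.15 and 1.71 at 4 °C (log2 fold change -0.98 ± 0.18, limma adjusted p = 0.0603). Dut was called under 5 alternatives that rescale the libraries or centre the values (limma adjusted p = 0.0213 to 0.0492), and was not called in the fit as planned. These settings called 491 to 708 genes in all, of 17464 to 18094 tested, against 252 of 17477 in the fit as planned. Timeless, of the fork protection complex, measured 2.09 and 1.76 at 22 °C against 0.750 and 0.621 FPKM at 4 °C (-0.80 ± 0.14, adjusted p = 0.0584). Slbp, the histone mRNA binding protein, measured 7.98 and 8.57 FPKM at 22 °C and 17.1 and 11.3 at 4 °C (limma adjusted p = 0.177). The largest mitotic-list change in the cold was that of Pimreg, a mitotic regulator. It rose from 0.0612 and 0.0885 FPKM at 22 °C to 2.06 and 1.55 FPKM at 4 °C (log2 fold change 1.38 ± 0.13, limma adjusted p = 0.0218). The call was lost without either 4 °C library, as were the calls of all other genes in these fits with a lone 4 °C library. The log2 fold change of Pimreg was then 1.25 without replicate 2 and 1.51 without replicate 11. Both 22 °C values are under 0.1 FPKM, so Pimreg passed the filter only through the 4 °C libraries and its call is not independent of the filter. Under HFD, Pimreg measured 0.485 and 0.207 FPKM with CD and 0.704 and 1.48 with HFD.

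Genes of G1 entry and its brakes held the other cold calls, 2 of the 37 tested, where 1.44% of all genes tested were called. Cdkn1a, which encodes the Cdk inhibitor p21, rose from 7.62 and 4.77 FPKM at 22 °C to 124 and 72.9 FPKM at 4 °C, a ratio of 15.9 (log2 fold change 3.77 ± 0.35, limma adjusted p = 0.0218). Ccng2, an atypical cyclin linked to cell cycle arrest, rose from 4.39 and 5.16 to 16.9 and 13.8 FPKM (1.50 ± 0.20, limma adjusted p = 0.0442). Both were higher in each cold library than in either 22 °C library. Neither call held without 4 °C replicate 2 or replicate 11. These fits leave a lone 4 °C library, and the loss of calls there was common to all genes tested. In these fits the log2 fold change was 3.39 and 4.15 for Cdkn1a, and 1.36 and 1.63 for Ccng2. Ccng2 was also lost without 22 °C replicate 4 (log2 fold change 1.40, adjusted p = 0.162) or replicate 7 (1.59, 0.123), fits that leave a lone 22 °C library assumed to vary like the 4 °C group. Without a filter on low values or without the intensity trend, limma called 0 genes in all, these 3 included (adjusted p of 0.155 to 0.171, and 0.0743, for Cdkn1a, Ccng2 and Pimreg), and Ccng2 was also lost on rescaling without mitochondrial and rRNA genes and Ucp1 (0.146). Skeletal muscle markers were higher in the same libraries, and their part in these values was not tested.

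Under HFD, limma called 0 of the 37 tested genes of G1 entry, pocket proteins and inhibitors, and 5 were higher and 0 lower at an unadjusted p under 0.05, near the 12.1% and 2.34% of all genes tested. Ccnd1, the cyclin that links growth signals to the cycle, measured 2.84 and 0.847 FPKM with CD and 6.16 and 6.23 with HFD (log2 fold change 1.43 ± 0.39, limma adjusted p = 0.190). Myc, a growth-promoting transcription factor, measured 0.603 and 0.502 with CD against 2.35 and 1.94 FPKM with HFD (1.02 ± 0.20, adjusted p = 0.146). Both genes were called by limma with the library type covariate (adjusted p = 0.0158 and 0.00796), where 4.25% of all genes tested were called. Btg2, an antiproliferative gene, measured 4.39 and 2.29 FPKM with CD and 4.92 and 10.8 with HFD. Cdkn1a measured 9.42 and 9.59 with CD against 7.89 and 42.7 FPKM with HFD, with HFD replicate 2 below both CD libraries and HFD replicate 6 above them.

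**Figure D5:**
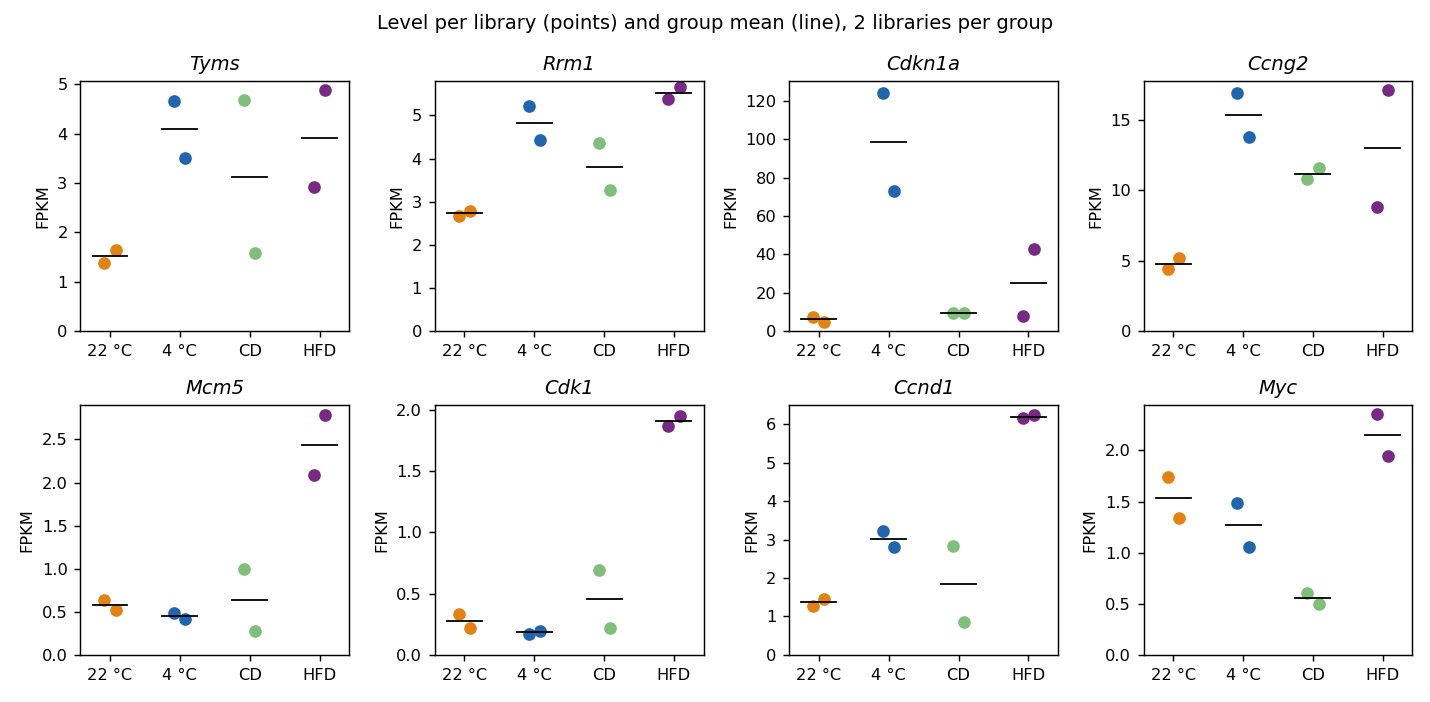
FPKM (vertical axes, from 0) of 8 genes in each library (points) with the group mean (line), 2 libraries per group. Tyms, Rrm1, Cdkn1a and Ccng2 are higher in both 4 °C than in both 22 °C libraries, and Mcm5, Cdk1, Ccnd1 and Myc are higher in both HFD than in both CD libraries.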

How the data were processed

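RNA-Seq was run on brown adipose tissue (BAT), in 8 libraries of male C57BL/6 mice with 2 per group. The authors deposited 1 table of FPKM values per gene: per the study's methods and the submitters' processing notes, reads of rRNA-depleted directional libraries were mapped to the mouse genome with TopHat2 2.0.10 and assembled with Cufflinks. Whether the counting used strand is not given in the sources used here. The table's columns of the authors' own comparisons, fold changes and p-values were not used, and the study's count-based test was not repeated because the values are FPKM.

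Here, log2(FPKM + 1) was fitted with limma 3.58.1 in R 4.3.3 (intensity trend, two-sided, Benjamini-Hochberg over all genes tested), separately for the 4 cold and the 4 diet libraries, without X, Y and mitochondrial genes, and with genes at 0.1 FPKM or more in at least 2 of the 4 libraries. A gene was called at an adjusted p under 0.05 and a log2 fold change of at least 1 either way. The fit was tested on simulated data with the same spread for every gene and changes only in genes at 1 FPKM or more. That test does not cover scarce genes or the library type split. Fold changes on the log2(FPKM + 1) scale understate changes of low genes, so ratios of mean FPKM are given beside them. Fragments were estimated from the step between low FPKM values (whole within 0.1 fragment), and cover counting error only.

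The genes and lists were chosen with earlier results of these data known. Values per library are given for 5 replication and 8 mitotic genes with the largest log2 fold change in each comparison, for Mki67, Top2a, Cdk1, Pcna, Mcm2, Rrm2, E2f1 and Foxm1, and for the called or 3 leading genes of each further list and Cdkn1a; a few more were named after their values were seen. Promoter windows came from RefSeq (GRCm38.p6) and were searched for the spelled motif words on both strands. Alternatives were a pseudocount of 0.1, other filters and scalings, a library type covariate, a fit of all 8 libraries, keeping X, Y and mitochondrial genes, no intensity trend, and leaving out each library.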

Additional observations from a re-analysis of the deposited data

How the results depend on the processing

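With 2 libraries per group and mostly under 1 FPKM per gene, single genes were close to the limit of what the test can call. Pseudocount 0.1 with the covariate, median-of-ratios scaling, and both together were chosen after seeing the data. Pairing by replicate number was not possible because the 22 °C and 4 °C libraries share no replicate number and the CD and HFD libraries share 1. The library type covariate blocks the libraries by a split measured in them, not by animal or replicate number. Of the 41 genes, the cold call count of 0 became 1 (Tyms) with a filter of 1 FPKM, with the library type covariate, and with pseudocount 0.1 and the covariate. It also became 1 with X, Y and mitochondrial genes kept, which adds X-linked genes listed at 0 in both 22 °C libraries and so supports nothing. The diet count of 0 became 1 with all 8 libraries, 3 with the covariate and 19 with pseudocount 0.1 and the covariate (background 11.5%). It became 2 with the combined scaling, pseudocount and covariate. Counts from fits that leave out 1 library rest on a lone library in 1 group. In the cold, such fits without a 4 °C library lost the calls of all genes tested. The cause of these shifts was not tested.

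Medians below are log2 fold changes. In the cold, the replication median of -0.00027 was 0.17 with the 1 FPKM filter, -0.13 with median centring, -0.053 with quantile normalization, -0.17 rescaled without mitochondrial and rRNA genes and Ucp1, -0.081 and -0.27 with median-ratio scaling without and with the smaller pseudocount and covariate, 0.11 in the satellite-low and -0.10 in the satellite-high libraries, and -0.089 to 0.10 leaving out 1 library. The cold mitotic median of -0.08 was -0.29 with pseudocount 0.1, with or without the covariate, -0.035 without a filter, -0.21 with median centring, -0.15 rescaled, -0.12 and -0.48 with median-ratio scaling as before, -0.026 in the satellite-low libraries, and -0.08 to -0.04 leaving out 1 library. Their difference of 0.08 was 0.29 with pseudocount 0.1, with or without the covariate, -0.020 rescaled, 0.21 with the combined setting, 0.00017 in the satellite-high libraries, and -0.023 to 0.16 leaving out 1 library. In the diet comparison, the replication median of 0.60 was 0.92 with pseudocount 0.1, with or without the covariate, 0.28 with median centring and 0.29 with quantile normalization, and 0.44 to 0.89 leaving out 1 library. The mitotic median of 0.35 was 1.07 with pseudocount 0.1, with or without the covariate, 0.98 with the 1 FPKM filter, 0.030 with median centring, 0.24 with quantile normalization, 0.27 and 0.80 with median-ratio scaling as before, 0.25 in the satellite-low libraries, and 0.27 to 0.39 leaving out 1 library. The difference of 0.25 was -0.15 with pseudocount 0.1, with or without the covariate, -0.22 with the 1 FPKM filter and -0.22 with the combined setting, and 0.17 to 0.50 leaving out 1 library.

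Of the genes tested, 15 of 32 in the cold and 13 of 39 in the diet comparison took the other sign under at least 1 alternative: in the cold at most 7 under any one (median centring, the rescaling, and the satellite-low libraries), and under HFD 12 with median centring, Cenpe without CD replicate 6 and Tyms without CD replicate 8. Among genes picked by the naming rule, the values were as follows. In the cold, Mcm7 was -0.086 rescaled; Anln 0.10 and E2f1 0.024 in the satellite-low libraries; leaving out 1 library, E2f1 ran from -0.061 to 0.027, turning positive without 22 °C replicate 4; Pcna was 0.42 in the satellite-low libraries and -0.34 to 0.34 leaving out 1 library, positive without 22 °C replicate 4 or 4 °C replicate 11. Mcm2 in the cold was -0.063 with median centring, -0.056 with median-ratio scaling, -0.15 rescaled, -0.11 with the combined setting, -0.10 in the satellite-high libraries and, leaving out 1 library, -0.043 (without 4 °C replicate 2) to 0.17. In the diet comparison, Foxm1 was -0.029 with median centring, and Cdkn1a -0.25 in the satellite-high libraries and, leaving out 1 library, -0.24 (without HFD replicate 6) to 2.06. Of the values of named genes under alternatives, 414 in the cold and 429 in the diet comparison kept direction and side of the threshold; in the cold 9 gained a call, 15 lost one, 13 changed sign and 9 untested ones moved beyond the standard error, and in diet 41, 0, 3 and 11.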

Other observations

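Of the 39 genes of G1 entry, pocket proteins and inhibitors, 17 were higher in both HFD libraries than in both CD libraries (43.6%) and none lower, near the 39.9% of all genes tested that were higher. In the cold 11 were higher and 10 lower in both libraries (28.2% and 25.6%), against 37.9% and 20.6% of all genes tested. A pair of them was named after their values were seen. Cdkn1c, which encodes the Cdk inhibitor p57 and is an imprinted gene, measured 4.64 and 3.87 FPKM with CD and 8.05 and 8.66 FPKM with HFD (limma, adjusted p = 0.289), and 11.8 and 10.7 FPKM at 22 °C and 17.4 and 15.9 FPKM at 4 °C (adjusted p = 0.173). Ccne1, cyclin E1, which opens S phase, measured 0.731 and 0.781 FPKM at 22 °C and 0.390 and 0.467 FPKM at 4 °C (limma, adjusted p = 0.134), so it was lower in both cold libraries while Tyms and Rrm1 were higher, and its CD and HFD libraries overlapped.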
